A study of Homo sapiens with 10 samples.

Results

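The genes described here were 45 X-linked cancer-testis genes outside the MAGEA family, listed by family and symbol with no threshold on their values, although earlier results of these data were known: 8 MAGEB, 3 MAGEC, 6 PAGE, 3 XAGE, 6 SSX, 4 GAGE, 2 CT45, 2 CTAG and 2 SPANX genes, and the 9 single genes DDX53, SAGE1, CSAG1, CT83, PASD1, LUZP4, FATE1, FTHL17 and NXF2. All 45 symbols were found, each at 1 identifier on chromosome X, among the 58884 genes of the count tables. PolyA RNA was sequenced from 6 libraries of HCT116, a colorectal cancer cell line labelled WT, and from 4 libraries of its derivative DNMT1 KO, and the question addressed by the comparison is which of these genes are transcribed once the maintenance DNA methyltransferase is impaired. Neither group received a treatment. The DNMT1 KO cells are a single line, given to the authors by the laboratory that made it, and carry a truncated, hypomorphic DNMT1 rather than a complete loss, so cell line and genotype cannot be told apart.

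Cancer-testis genes are normally transcribed in male germ cells and are silent in most somatic tissues, where the CpG sites of their promoters carry DNA methylation. DNMT1 copies that methylation onto the new DNA strand at replication, and demethylating drugs or loss of DNMT1 are known to activate some of these genes in cultured cells. Many of them lie on the X chromosome in families of near-identical copies, and their proteins are studied as tumour antigens.

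DNMT1 itself was measured at 89.8 to 263 CPM (counts scaled to library totals of equal size, after TMM adjustment) in HCT116 and at 14.1 to 22.3 CPM in DNMT1 KO (edgeR quasi-likelihood test, log2 fold change -2.97, adjusted p = 1.74e-05). Totals ranged from 26700853 to 85991812 counts per library, so 3 counts in a library, the limit that a count of 0 allows, stood for 0.0349 to 0.104 CPM, a figure that covers counting error only. DNMT1 KO replicate 4, the shallowest library, had 39.9% even values among counts of 1 to 10, against 64.4% to 70.0% in the other 9, and intervals on counts may be too narrow, and fold bounds too high, where a read pair was counted as 2. Of 12 germ cell markers, 6 had no count in any library (PRM1, PRM2, TNP1, ZPBP, SPATA16 and SPACA1), 1 was tested and 0 were called, with a summed level of 0.306 to 1.90 CPM in HCT116 and 0.126 to 0.555 CPM in DNMT1 KO. Of 10 colon epithelial markers, 4 were called lower and 1 higher, with a summed level of 2520 to 6130 CPM in HCT116 and 645 to 1431 CPM in DNMT1 KO, and KRT20 had no count in either. Fibroblast markers were called higher for 3 of 6 genes (6.47 to 19.8 CPM summed in HCT116, 16.6 to 21.4 in DNMT1 KO). COL1A1, the highest fibroblast marker in HCT116, had a lower mean in DNMT1 KO (12.5 and 6.72 CPM) and was not called. Leukocyte markers were called higher for 1 of 5 (0.0677 to 0.588 and 1.84 to 2.72 CPM). Of 7 Sertoli and Leydig cell markers 1, SOX9, was called lower (summed level 137 to 480 and 26.6 to 65.9 CPM). SOX9 alone held 126 to 472 CPM in HCT116 and 21.0 to 57.1 CPM in DNMT1 KO. INHA, INSL3, STAR and CYP17A1 had higher means in DNMT1 KO, AMH and HSD3B2 lower ones, and none of these was called. The part of these markers in the results below was not tested.

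The members fell into 5 classes at a level of 0.1 CPM (plot of family members by class). Calls required an adjusted p below 0.05 together with a log2 fold change beyond 1 or -1, and a gene is termed switched on where it was called higher, averaged under 0.1 CPM in HCT116 and at least 0.1 CPM in DNMT1 KO, and was higher in the lowest DNMT1 KO library than in the highest HCT116 library. By this rule 6 of the 45 genes were switched on in DNMT1 KO: DDX53, SAGE1, MAGEC2, PASD1, MAGEC1 and PAGE1. Over all 58884 genes 0.644% met the same rule, and 1.26% of the 2386 genes on chromosome X. MAGEB1, MAGEB2, MAGEB3 and CSAG1 averaged 0.1 CPM or more in both groups, MAGEB17 in HCT116 alone, and MAGEC3 and GAGE1 in DNMT1 KO alone without meeting the rule. The other 32 genes averaged under 0.1 CPM in both groups and are called silent, as were 62.4% of all genes. None of the listed XAGE, SSX, CT45, CTAG or SPANX genes reached 0.1 CPM as a group mean. This does not hold for whole families: CT45A10, outside the 45, averaged 1.23 CPM in DNMT1 KO. Reads of near-identical copies in these families could also be lost, as described below.

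**Figure D1:**
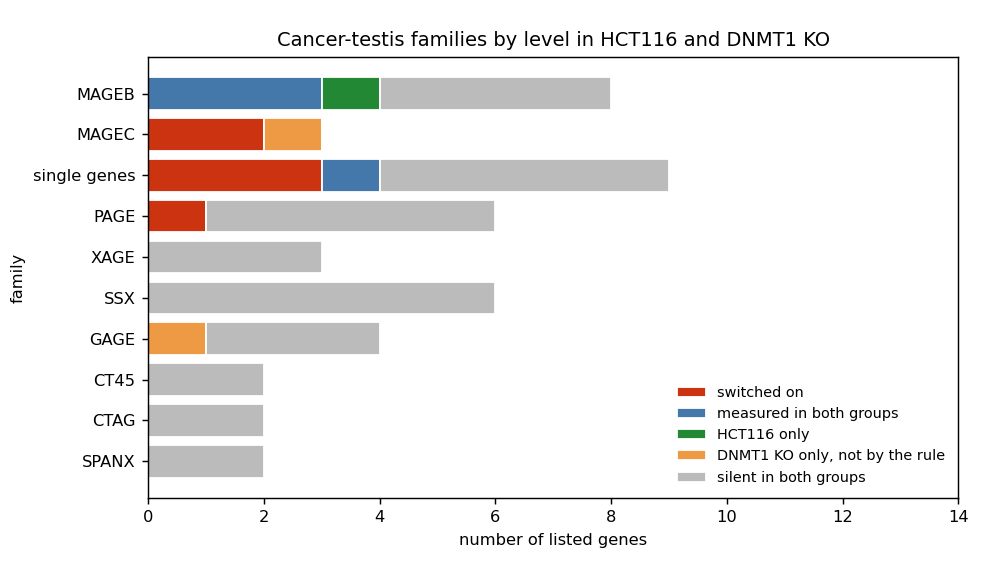
Number of listed cancer-testis genes in each family (x axis) by class (colours): switched on in DNMT1 KO, measured in both groups, HCT116 alone, DNMT1 KO alone without meeting the rule, or silent in both. All 6 switched-on genes are MAGEC, PAGE or single genes, and the listed XAGE, SSX, CT45, CTAG and SPANX genes are all silent.

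Before any values, the promoters of the 3 switched-on genes with the highest DNMT1 KO level per kilobase of exon are shown, with that of a silent PAGE gene whose exons are unique in the genome, because DNMT1 acts on the CpG sites that these sequences carry. Each runs from 250 bases before to 50 bases after the annotated start, is taken from RefSeq on GRCh38.p14, reads 5′ to 3′ on the gene's strand, and has its CpG sites in capitals. DDX53 lies at chrX:22999710-23000009 on the plus strand (14 CpG), PAGE1 at chrX:49695935-49696234 on the minus strand (13 CpG), MAGEC2 at chrX:142205241-142205540 on the minus strand (10 CpG) and the silent PAGE3 at chrX:55264867-55265166 on the minus strand (5 CpG).
DDX53: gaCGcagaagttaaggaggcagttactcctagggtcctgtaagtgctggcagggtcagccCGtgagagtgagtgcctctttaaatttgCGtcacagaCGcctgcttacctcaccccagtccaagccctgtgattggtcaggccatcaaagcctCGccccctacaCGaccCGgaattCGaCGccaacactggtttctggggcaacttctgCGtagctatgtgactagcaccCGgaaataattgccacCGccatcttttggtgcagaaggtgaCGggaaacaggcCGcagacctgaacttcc
PAGE1: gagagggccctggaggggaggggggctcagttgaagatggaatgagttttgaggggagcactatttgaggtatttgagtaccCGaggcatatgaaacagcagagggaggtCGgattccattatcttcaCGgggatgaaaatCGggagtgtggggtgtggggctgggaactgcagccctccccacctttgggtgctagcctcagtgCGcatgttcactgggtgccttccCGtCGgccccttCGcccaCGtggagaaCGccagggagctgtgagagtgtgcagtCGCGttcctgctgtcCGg
MAGEC2: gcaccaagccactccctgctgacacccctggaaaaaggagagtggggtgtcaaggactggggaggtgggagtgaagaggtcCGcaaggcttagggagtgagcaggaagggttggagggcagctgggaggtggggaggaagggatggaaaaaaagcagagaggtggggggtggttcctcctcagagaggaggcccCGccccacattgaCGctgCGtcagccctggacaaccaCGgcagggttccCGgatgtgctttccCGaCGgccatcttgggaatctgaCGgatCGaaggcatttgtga
PAGE3: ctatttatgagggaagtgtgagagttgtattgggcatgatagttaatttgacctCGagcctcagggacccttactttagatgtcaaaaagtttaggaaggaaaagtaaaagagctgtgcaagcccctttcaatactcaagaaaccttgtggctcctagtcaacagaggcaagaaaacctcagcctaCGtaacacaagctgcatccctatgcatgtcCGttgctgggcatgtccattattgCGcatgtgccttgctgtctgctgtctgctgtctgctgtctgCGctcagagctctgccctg

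RefSeq promoters were matched by symbol for 39 of the 45 genes; CTAG1B, CTAG2, CT45A5, FTHL17, SSX3 and MAGEB17 had none. The 6 switched-on genes held 10 to 14 CpG (median 13.5), the 27 silent genes with a promoter 2 to 14 (median 10), the 4 genes measured in both groups 1 to 21 (median 9.5), and all 35116 promoters a median of 14. So the range of the silent genes enclosed that of the switched-on genes, and PAGE2, silent with 13 CpG, had as many as PAGE1. MAGEB2, the member with the highest level, had the most CpG (21), and MAGEB1, which was called higher, had 1 in the window nearest its start and 18 in a second window at chrX:30246896-30247195. The annotated start used was 56350 bases from the start of the gene in the count tables for MAGEC3, 9517 for GAGE1 and 4511 for SAGE1, so these windows may not be the ones in use. Of the motifs searched on both strands, the E-box CACGTG was found in 9 of the 39 promoters (23.1%, against 7.26% of all promoters), the Sp1 box GGGCGG in 9 (23.1% against 45%) and the ETS core CGGAAG in 6 (15.4% against 19.5%). Each of the 3 motifs holds a CG and so overlaps the CpG count. PAGE1 carries 1 E-box and MAGEC2 1 Sp1 box, and the windows of DDX53 and PAGE3 hold none of the 3. 4 of the 9 E-box promoters belong to GAGE genes, whose copies share sequence.

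**Figure D2:**
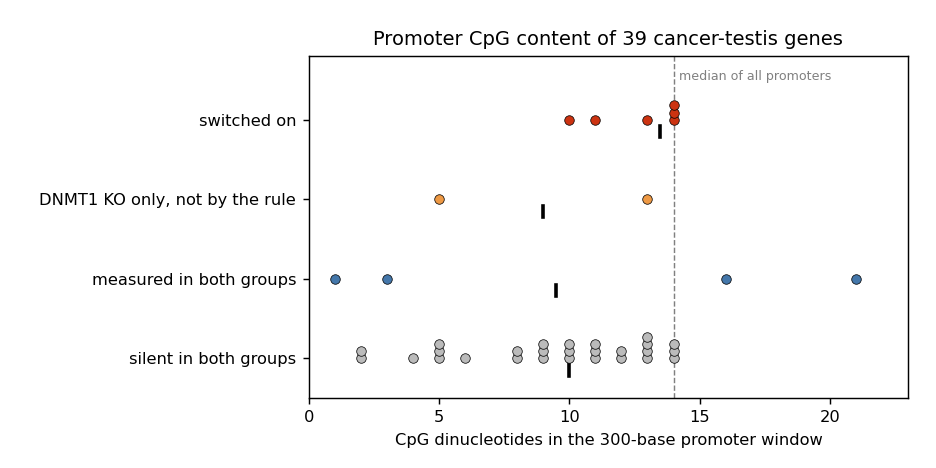
CpG dinucleotides in the 300-base RefSeq promoter window (x axis) of 39 cancer-testis genes, 1 point per gene, by class, with a black bar at each class median and a dashed line at the median of all promoters (14). The points of the silent genes (2 to 14) span those of the switched-on genes (10 to 14).

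In the test, 8 of the 45 genes were called higher in DNMT1 KO, 1 was called lower, 1 was tested and not called, and 35 had too few counts to be tested. Over all 19279 genes tested, 7.42% were called higher and 6.49% lower, and over the 754 tested on chromosome X 10.6% and 5.57%. These shares are of genes tested, and 10 of the 45 members were tested. The genes called higher were the 6 switched-on genes, MAGEB1 and CSAG1, and the gene called lower was MAGEB17. DDX53, SAGE1, PASD1 and MAGEC1 had no HCT116 count and PAGE1 had 2. These genes, and MAGEC2 with 22 HCT116 counts, passed the filter on low counts through DNMT1 KO alone. CSAG1, with 70 HCT116 counts, also needed DNMT1 KO libraries to pass. For all of these, being tested and being called higher were tied. MAGEB17, with 11 DNMT1 KO counts, passed through HCT116 alone, so for it being tested and being called lower were tied. Without a test, 24 of the 45 had a higher mean in DNMT1 KO, 5 a lower mean and 16 no count in any library, against 30.8%, 29.0% and 40.2% of all genes. The median difference of the group means was 0.00889 CPM over the members and 0 over all genes. All 45 members together summed to 255.1 to 486.2 CPM in the HCT116 libraries and to 229.8 to 473.2 CPM in the DNMT1 KO libraries, which overlapped. MAGEB2, the member with the highest level, was not called. Excluding MAGEB2, the sums were 2.20 to 6.83 CPM in HCT116 and 68.9 to 91.7 CPM in DNMT1 KO, which did not overlap. In DNMT1 KO, CSAG1, MAGEB1 and DDX53, all called higher, made up 93.0% to 94.5% of the sum without MAGEB2.

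**Figure D3:**
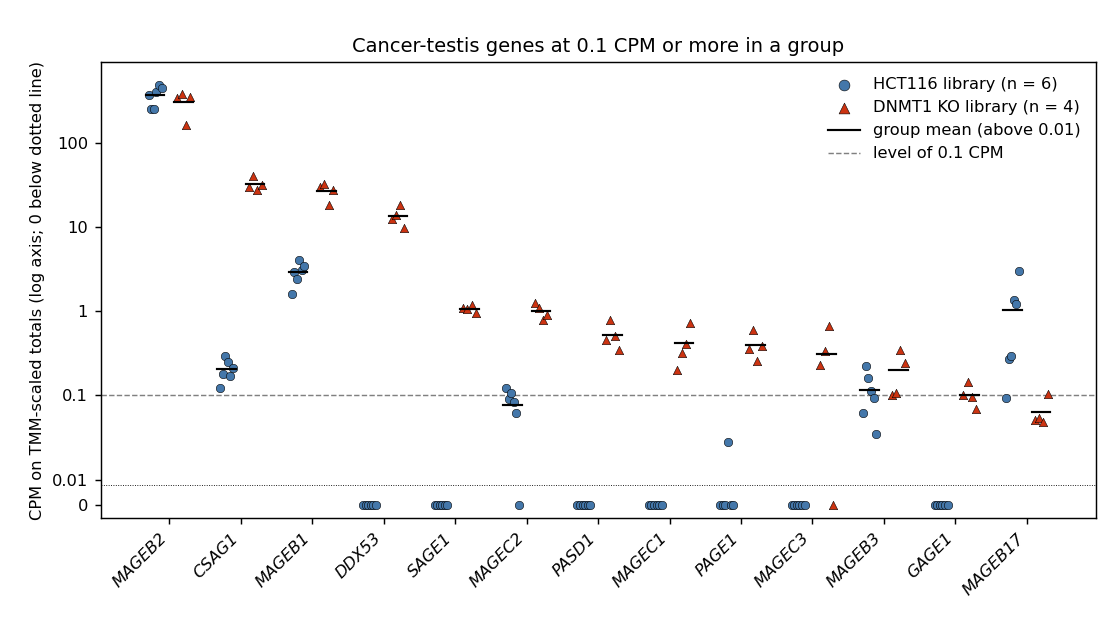
CPM on TMM-scaled totals (log axis, 0 below the dotted line) of the 13 members at 0.1 CPM or more in a group, with 1 point per library (circles HCT116, triangles DNMT1 KO) and bars at group means above 0.01 CPM. DDX53 and SAGE1 are at 0 in all HCT116 libraries and at 9.63 to 18.4 and 0.938 to 1.17 CPM in DNMT1 KO, whereas the points of MAGEB2 and of MAGEB3 overlap between groups.

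DDX53, an intronless gene for a DEAD-box RNA helicase, had the highest level per length among the switched-on genes. No count was found in any of the 6 HCT116 libraries, and DNMT1 KO replicates 1 to 4 held 12.4, 13.9, 18.4 and 9.63 CPM. Every DNMT1 KO library thus stood above every HCT116 library, with a mean of 13.6 ± 3.66 CPM (SD, n = 4; edgeR, adjusted p = 4.84e-07). Counts summed over DNMT1 KO, per scaled total, were at least 1620-fold above a floor of 3 counts over the HCT116 group. With the mostly even counts halved this bound was 774-fold. The gene is a single exon at chrX:22999961-23003589 on the plus strand, and 93.2% of its 50-base words occur once in hg38.

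SAGE1, which encodes a sarcoma antigen, was the most even of the switched-on genes. It had no count in HCT116 and 1.09, 1.07, 1.17 and 0.938 CPM in DNMT1 KO replicates 1 to 4, a mean of 1.07 ± 0.0974 CPM (SD, n = 4). The groups did not overlap, and the summed counts were at least 122-fold above the floor, or 60.1-fold with halved counts (edgeR, adjusted p = 2.45e-05). Its nearest members on the chromosome, CT45A1 and CT45A5, had no count in any library. Only 11.9% and 0% of their words are unique in hg38, so these counts of 0 do not show an absence of transcripts.

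PASD1 encodes a nuclear protein with a PAS domain that represses the circadian activators CLOCK and BMAL1. It had no count in HCT116 and 0.455, 0.782, 0.508 and 0.348 CPM in DNMT1 KO, with a mean of 0.523 ± 0.185 CPM (SD, n = 4). The summed counts were at least 62.2-fold above the floor, or 29.5-fold with halved counts (edgeR, adjusted p = 0.000131). FATE1, a testis gene 39.3 kb downstream, was silent at 0.00516 CPM in HCT116 and 0.0559 CPM in DNMT1 KO.

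Of the 6 PAGE genes, which encode short acidic proteins related to GAGE, PAGE1 alone met the rule for switched on. A single HCT116 library held PAGE1 counts, replicate 7 with 2 (0.0279 CPM), and DNMT1 KO held 0.354, 0.604, 0.254 and 0.382 CPM. The libraries did not overlap, the group means were 0.00464 and 0.399 ± 0.148 CPM (SD, n = 4), and the counts per scaled total had a ratio of 67.2 with an exact 95% interval of 17.98 to 565 (edgeR, log2 fold change 5.61, SE 0.77, adjusted p = 0.000109). PAGE2, PAGE2B, PAGE3, PAGE4 and PAGE5 were silent, with means up to 0.0361 CPM in HCT116 and 0.0799 CPM in DNMT1 KO, both in PAGE4. PAGE3 and PAGE4 have exons made wholly of words unique in hg38, so reads within an exon fit a single place. Reads that cross exon junctions are not covered by these words. Of the words of PAGE2 60.2% are unique, and of those of PAGE2B 40.5%.

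The 3 MAGEC genes, members of the MAGE family whose proteins bind RING ubiquitin ligases (MAGEC2 binds TRIM28), all had higher means in DNMT1 KO. MAGEC2 ranged from 0 to 0.124 CPM in HCT116 with a median of 0.0869, and was at 1.26, 1.08, 0.794 and 0.904 CPM in DNMT1 KO. The lowest DNMT1 KO library stood well above the highest HCT116 library (edgeR, log2 fold change 3.76, SE 0.60, adjusted p = 0.000424), and MAGEC2 was the one switched-on gene with counts in 5 of the 6 HCT116 libraries.

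MAGEC1 had no count in HCT116 and 0.202, 0.320, 0.413 and 0.730 CPM in DNMT1 KO, a mean of 0.416 ± 0.226 CPM (SD, n = 4). Its summed counts were at least 43.6-fold above the floor, or 24.4-fold with halved counts (edgeR, adjusted p = 0.000352). Its call depended on passing the filter on low counts: it was lost, untested, without DNMT1 KO replicate 2 or 3 or without HCT116 replicate 7, 8 or 9. MAGEC3, 6.1 kb upstream of MAGEC1, had no count in HCT116 and 0.227, 0.338, 0.667 and 0 CPM in DNMT1 KO. The 0 of DNMT1 KO replicate 4 allows up to 0.104 CPM, so this library lay below the other 3; MAGEC3 was not tested, and was called higher once that library was left out or no filter was applied (edgeR, adjusted p = 0.00011 with no filter).

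CSAG1, a chondrosarcoma-associated gene that lies beside the MAGEA genes, was the member with the largest change among those measured in both groups. HCT116 ranged from 0.124 to 0.294 CPM with a median of 0.195, and DNMT1 KO replicates held 29.9, 40.4, 27.6 and 31.7 CPM. The groups were far apart at 0.205 ± 0.0608 CPM (SD, n = 6) and 32.4 ± 5.58 CPM (SD, n = 4; edgeR, log2 fold change 7.28, SE 0.30, adjusted p = 2.56e-09). Under a level of 0.5 CPM in place of 0.1 it would count as switched on. Its relative CSAG3, which shares 4.35% of the words of CSAG1, was not called, at 0.665 ± 0.274 CPM (SD, n = 6) and 0.489 ± 0.222 CPM (SD, n = 4; edgeR, adjusted p = 0.611).

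The 8 MAGEB genes did not move together. MAGEB2, MAGEB3, MAGEB4 and MAGEB1 lie in this order within chrX:30215563-30252040, all on the plus strand, and differed by orders of magnitude in level per length. MAGEB2, the head of this row, had the highest level of all members in both groups: 252 to 481 CPM in HCT116 with a median of 386, and 343, 381, 161 and 348 CPM in DNMT1 KO. The groups overlapped, and the log2 fold change was -0.25 with SE 0.29 (edgeR, adjusted p = 0.63). MAGEB2 took 157 to 299 CPM per kb of exon in HCT116 and 100 to 237 in DNMT1 KO.

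MAGEB1, at the far end of the row, ranged from 1.61 to 4.05 CPM in HCT116 with a median of 3.02, and was at 29.6, 32.1, 18.2 and 27.2 CPM in DNMT1 KO. The groups did not overlap (2.92 ± 0.842 CPM, SD, n = 6; 26.8 ± 6.06 CPM, SD, n = 4; edgeR, log2 fold change 3.19, SE 0.29, adjusted p = 2.01e-06). MAGEB4, whose gene overlaps the start of MAGEB1 on the same strand over 3.41% of its exonic bases, had no count in any library. MAGEB3 ranged from 0.0349 to 0.226 CPM in HCT116 with a median of 0.102, and held 0.101, 0.107, 0.349 and 0.243 CPM in DNMT1 KO. MAGEB3 overlapped between groups and was not tested, and with no filter its log2 fold change was 0.79 with SE 0.73 (edgeR, adjusted p = 0.521). Of the silent MAGEB genes outside the row, MAGEB6 averaged 0.0618 and 0.0812 CPM, MAGEB10 had 4 counts, all in DNMT1 KO, and MAGEB16 had 2, both in HCT116. MAGEB18, a MAGEB gene outside the 45, had no count in HCT116 and 1.93 ± 1.13 CPM (SD, n = 4) in DNMT1 KO, and was called higher (edgeR, adjusted p = 5.85e-05).

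MAGEB17 was the one member called lower. HCT116 ranged from 0.0928 to 2.99 CPM with a median of 0.751, and DNMT1 KO held 0.0505, 0.0533, 0.0476 and 0.104 CPM. The HCT116 libraries of batch 4 (replicates 7 to 9) averaged 1.85 CPM and those of batches 1 and 2 averaged 0.219 CPM, and the lowest HCT116 library, at 0.0928 CPM, lay below DNMT1 KO replicate 4. The log2 fold change was -4.06 with SE 0.94 (edgeR, adjusted p = 0.00688). No call was made within batches 1 and 2, where MAGEB17 had too few counts to be tested. Between HCT116 libraries of batch 4 and of batches 1 and 2, MAGEB17 was the one member called (edgeR, log2 fold change 3.04, SE 0.62, adjusted p = 0.0117), where 8.03% of 18656 genes were called and 3.09% were called higher in batch 4, and this call was lost without HCT116 replicate 2 or 9. A gene on the opposite strand, ENSG00000238178, covers 25.8% of the exonic bases of MAGEB17. No strand setting is named for the counting, so reads within those bases may not have been assigned by strand.

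**Figure D4:**
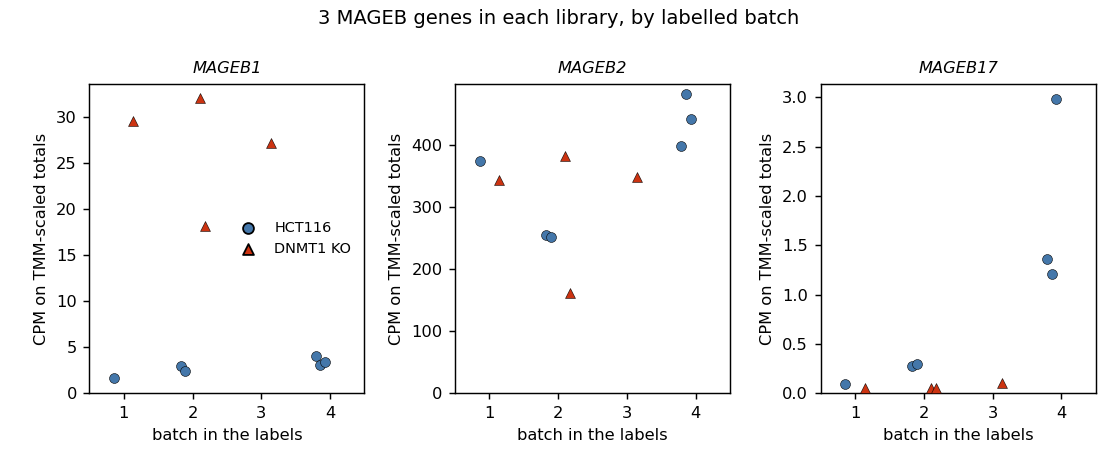
CPM on TMM-scaled totals (y axis, from 0) of MAGEB1, MAGEB2 and MAGEB17 in each library, by the batch given in the labels (x axis; circles HCT116, triangles DNMT1 KO). MAGEB1 is higher in DNMT1 KO in both shared batches, and the highest MAGEB17 values are the 3 HCT116 libraries of batch 4.

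Batches 1 and 2 hold libraries of both groups, with 1 of each in batch 1 and 2 of each in batch 2; batch 3 holds DNMT1 KO alone and batch 4 HCT116 alone. In both shared batches the 8 genes called higher had a higher mean in DNMT1 KO. The log2 ratio of DNMT1 KO to HCT116 was 7.92 in batch 1 and 7.16 in batch 2 for CSAG1, 4.20 and 3.23 for MAGEB1, and 3.35 and 3.25 for MAGEC2. DDX53, SAGE1, PASD1, MAGEC1 and PAGE1 had no HCT116 count in either batch. For MAGEB2 the ratios were -0.12 and 0.10. Fitted on batches 1 and 2 with batch as a term, 9 members were among the 18681 genes tested. Of these members, 8 were called higher, with MAGEC3 in place of MAGEC1, and all but MAGEB1 passed the filter through DNMT1 KO. The share of all genes called in this fit is not given here. MAGEC1 and MAGEC2 did not meet the rule for switched on, and the HCT116 libraries of these batches averaged 0.107 CPM for MAGEC2.

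Set side by side per kilobase of exon, the 13 members at 0.1 CPM or more in a group ran in DNMT1 KO from MAGEB2 (mean 192 CPM per kb) through CSAG1 (29.7), MAGEB1 (13.6), DDX53 (3.75), PAGE1 (0.605), MAGEC2 (0.507), SAGE1 (0.361), PASD1 (0.120), MAGEC3 (0.111), MAGEC1 (0.0978), MAGEB3 (0.0868) and MAGEB17 (0.0397) to GAGE1 (0.0315). The first 4 were separated from each other and from PAGE1 in every library, and SAGE1 from PASD1. PAGE1 and MAGEC2 overlapped, the lowest MAGEC2 and the highest SAGE1 library were both at 0.398 CPM per kb, and from PASD1 downwards each gene overlapped the next. The number of exons was not adjusted for, and bowtie2 may not have aligned reads that cross exon junctions. DDX53 has 1 exon block and MAGEB2 2, against 15 in PASD1 and 20 in SAGE1, so part of this order may reflect exon structure, which was not tested.

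GAGE1 was the GAGE gene with the highest DNMT1 KO mean, 0.102 ± 0.0301 CPM (SD, n = 4), just above the level of 0.1 CPM. It had no count in HCT116 and 4, 8, 6 and 2 counts in DNMT1 KO replicates 1 to 4, at least 11.95-fold above the floor, or 5.70-fold with halved counts. The libraries did not overlap, but the gene had too few counts for the filter, and with no filter it was called higher (edgeR, adjusted p = 0.00483), as was GAGE12J with 15 counts in DNMT1 KO (adjusted p = 0.0209). With no filter 11 members were called higher and 1 lower among 29 with a count, and 5.58% and 4.39% of all 35231 genes with a count. Only 12.8% of the words of GAGE12J and 17.3% of those of GAGE2A are unique in hg38, so which copy these counts belong to cannot be read from the tables. GAGE10 had no count.

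In all, 11 of the 45 genes were higher in the lowest DNMT1 KO library than in the highest HCT116 library, where 3.66% of all 58884 genes and 8.40% of those tested were: the 8 called higher, GAGE1, XAGE2 and FATE1. XAGE2 and FATE1 had 7 and 11 counts in DNMT1 KO and stayed under 0.1 CPM. XAGE3 and XAGE5, whose words are 99.3% and 94.5% unique, had no count in any library.

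Of the 32 silent genes, 16 had no count in any library, and none of the others exceeded 36 counts over the HCT116 group or 18 over the DNMT1 KO group. The genes of this group differ in how far their reads could be told from those of other places in hg38. Reads that fit several places equally well were removed by the mapping quality filter of the authors, and each exonic sequence was therefore cut into 50-base words, the read length, and searched for in hg38. Words were cut within exons, so reads that cross exon junctions, which bowtie2 may not align to the genome, were not covered. A silent reading of a gene with several exons therefore stays uncertain even where its words are unique. For 12 silent genes at least 90% of these words were unique: MAGEB4, MAGEB10, MAGEB16, PAGE3, PAGE4, XAGE2, XAGE3, XAGE5, CT83, LUZP4, FATE1 and FTHL17. CT83, whose product is a peptide antigen of lung cancer, and the testis-specific gene LUZP4, for an mRNA export factor, had no count in any library and 6 counts in each group, respectively.

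For 9 silent genes under 20% of the words were unique, and for SSX2, SSX4, CT45A5, CTAG1B and NXF2 none were. All words of SSX2 and of SSX4 recur in their copies SSX2B and SSX4B, 98.8% of those of the mRNA export gene NXF2 in NXF2B, and 88.8% of those of CTAG1B, which encodes the antigen NY-ESO-1, in CTAG1A. A count of 0 in these genes cannot be read as an absence of transcripts. In the CT45 family, CT45A1 and CT45A5 had no count, while CT45A10, a copy outside the 45 that shares 33.9% of the words of CT45A1 and 47.5% of those of CT45A5, rose from 0.0201 ± 0.0374 CPM (SD, n = 6) to 1.23 ± 0.600 CPM (SD, n = 4; edgeR, log2 fold change 5.61, SE 0.80, adjusted p = 0.000143). Reads of CT45 copies with like sequence could not be assigned to 1 of them.

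**Figure D5:**
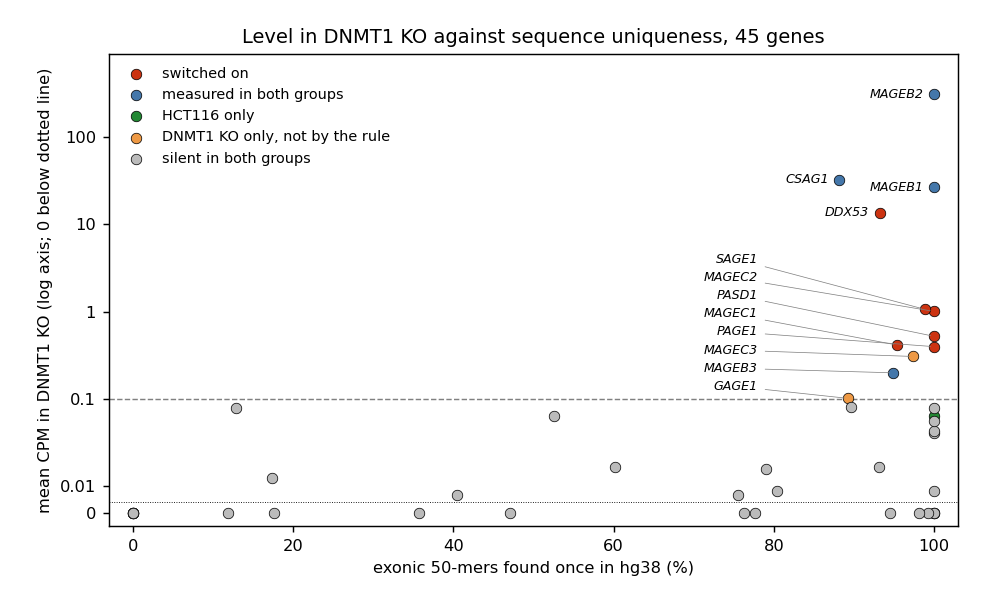
Mean CPM in DNMT1 KO (log axis, 0 below the dotted line) of the 45 genes against the percentage of their exonic 50-base words found once in hg38, coloured by class. All 12 genes at 0.1 CPM or more in DNMT1 KO have at least 88.2% unique words, while silent genes lie between 0% and 100%.

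The SSX genes encode transcriptional repressors, some of them known from fusion to SS18 in synovial sarcoma. All 6 listed averaged under 0.1 CPM in both groups, and SSX3 and SSX5, with 76.2% and 77.6% unique words, had no count. SSX1 was the one SSX gene with counts, 36 in HCT116 and 4 in DNMT1 KO. It averaged 0.154 CPM in HCT116 batch 4 and 0.0178 CPM in batches 1 and 2, and its HCT116 mean of 0.0861 CPM lay just under the level used for silent. CTAG2, with 52.5% unique words, had 4 counts in 1 HCT116 library and 12 over the 4 DNMT1 KO libraries, and with no filter it was not called (edgeR, log2 fold change 2.24, SE 1.24, adjusted p = 0.29). SPANXB1, for a protein of the sperm nucleus, and the ferritin heavy chain-like gene FTHL17 had 2 counts each, all in DNMT1 KO, and SPANXC had none.

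Beside the 45, the same rules were applied to related gene lists. Of 12 MAGEA genes 8 were tested, 7 were called higher, 1 lower and 4 were switched on. Of 55 further X-linked cancer-testis genes in the tables, mostly other copies of the families above, 3 were tested, 2 were called higher (MAGEB18 and CT45A10, both switched on) and 49 were silent. Of 45 autosomal germline genes, 14 were tested, 3 were called higher, 1 lower and none switched on. Of 11 MAGE genes of broad somatic expression, 5 were tested, 3 called higher and 1 switched on, and of 14 protein partners and somatic relatives of the members, such as TRIM28, SS18, NXF1 and FTH1, 9 were tested, with 1 called higher and 1 lower. The differences between these lists were not tested.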

How the data were processed

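PolyA RNA was sequenced as 50-base read pairs (stranded library kit). According to their methods, the authors trimmed reads (Trim Galore 0.4.1), aligned them to hg38 with bowtie2, removed those with a mapping quality under 10, and counted reads over exons with featureCounts; no strand option was named, and the annotation release is not given in the sources used here. What the authors deposited is 1 table of raw counts for each library. The authors describe the libraries as independent cultures, so p-values measure the spread between cultures of 2 lines. 3 further HCT116 tables have no sample in the labels and were not used here.

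Counts were fitted by genotype in edgeR 4.0.16 (R 4.3.3; TMM, filterByExpr, quasi-likelihood test, two-sided) with Benjamini-Hochberg adjustment over all 19279 genes tested; calls required an adjusted p below 0.05 together with a log2 fold change beyond 1 or -1. SE is the change over the root of F. The fit was tested on simulated data. Fold bounds set summed DNMT1 KO counts per scaled total against a floor of 3 counts over the HCT116 group. Count ratios carry an exact conditional 95% interval. Exonic 50-base words were matched exactly on both strands of hg38 over 24 chromosomes; RefSeq promoters come from GRCh38.p14, whose primary chromosomes are those of hg38. Alternatives were DESeq2 1.42.0, RLE factors, unscaled totals, other filters and levels, batches 1 and 2 alone, a replicate block, halved counts (for the fold bounds chosen after seeing the data) and leaving out each library. The members and gene lists were chosen with earlier results of these data known. Members called, or at 0.1 CPM or more in a group, are given in every library and the others by count and range, and from related lists the called genes with the largest change that bear on a family are named; CSAG3 and the single silent members described were picked after their values were seen.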

Additional observations from a re-analysis of the deposited data

How the results depend on the processing

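With RLE size factors, unscaled library totals or DESeq2, 8 members were called higher, 1 lower and 6 were switched on, and the genes were those of the main test. With no filter on low counts 11 were called higher, 1 lower and 7 were switched on. Requiring at least 10 counts in every library left 2 members to test, with 1 called higher, 0 lower and 0 switched on. Halving the 9 libraries in which low counts were mostly even left 6 to test, with 5 called higher (MAGEC1, PAGE1 and PASD1 no longer passed the filter), 0 lower and 3 switched on. When batches 1 and 2 were fitted alone with a batch term, 8 were called higher, 0 lower and 5 were switched on, and MAGEB2 changed sign to 0.027 on the log2 scale (edgeR, adjusted p = 0.973), far within its error. Leaving out each library gave 7 to 9 called higher, 1 lower, 5 to 7 switched on and 31 to 33 silent; MAGEC1 was lost without HCT116 replicate 7, 8 or 9 or DNMT1 KO replicate 2 or 3, and MAGEC3 was gained without DNMT1 KO replicate 4. The comparison of HCT116 batches gave 0 to 1 members called when each library was left out. A level of 0.05 CPM gave 5 switched on and 26 silent, and 0.5 CPM gave 5 and 37. The fit of replicates 1 to 3 with a replicate block called 8 higher and 0 lower, with 5 switched on. Deviations of same-numbered libraries correlated at 0.46, -0.20 and 0.37 over 19279 genes. Same-numbered libraries also share a labelled batch, and differently numbered libraries were not compared. These values therefore cannot decide whether the numbers pair the libraries. Depth limits the low members: most calls outside CSAG1, MAGEB1 and DDX53 rest on few counts, and reads of near-identical copies could not have been placed.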
